A study of Homo sapiens with 4 samples.

Results

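The 41 genes described here encode the DNA replication machinery and the regulators of entry into S phase: the MCM helicase, origin licensing and helicase activation factors, polymerases, the sliding clamp and its loader, the single-strand binding protein RPA, enzymes of nucleotide supply, and the E2F and cyclin genes of the G1/S transition. They were chosen by gene symbol, by role, out of 56832 genes in the deposited table, and all 41 passed the filter on low values, a mean of at least 10 normalised counts over the libraries, along with 20250 genes in total. RNA was sequenced from A375, an established human melanoma cell line labelled wild type, 48 h after addition of octanoate at 1 mM, a medium-chain fatty acid, or of isopropanol, the vehicle. Each group had 2 libraries, called vehicle 1 and 2 and octanoate 1 and 2 below. The labels do not say whether these came from separate cultures, so the p-values measure the spread between these libraries, which may be technical. In limma that spread was largely taken from other genes of like level (21.2 prior degrees of freedom) and not from each gene alone. All cells are of a single line, and the labels name no marker of cell cycle phase.

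Before S phase, the origin recognition complex with CDC6 and CDT1 loads the MCM helicase onto chromatin, a step called licensing. CDC45 and the GINS complex then turn the helicase on, and primase, polymerases, the clamp PCNA, its loader and RPA copy the DNA. Most of these genes are transcribed from late G1 by E2F factors, which the retinoblastoma protein holds back until cyclin D and cyclin E kinases phosphorylate it.

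After octanoate, 14 of the 41 genes were lower and 2 were higher at a Benjamini-Hochberg adjusted p under 0.05 in limma, fitted across all tested genes on log2(normalised count + 1). The background was 13.7% of all tested genes lower and 16.2% higher, while of the 9003 tested genes whose mean reached 1000, the range in which the 41 genes lie, 1801 were lower and 1630 (18.1%) higher. The falls were small: the median log2 difference over the 41 genes was -0.13, against 0.01 over all genes tested, and the cyclin E gene CCNE2, which moved furthest down, fell by 31.3%. The DNA synthesis genes TK1, FEN1, TYMS, PCNA, GINS2 and MCM4 fell, with changes of -25.0% to -17.6%. E2F1 and the cyclin D gene CCND1 were the 2 that rose, by 38.3% and 21.7%. In sequencing of bulk cells, fewer cells in S phase and less of each RNA per cell cannot be told apart.

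The size of these counts changed when a library was left out and with how variance was shared between genes. Without vehicle 1, or without octanoate 2, 7 genes were called lower, where the background also fell, to 7.53% and 9.0%. The same 9 genes were called in each fit that left out a library: MCM4, GINS2, PCNA, FEN1, TYMS, TK1 and CCNE2, which fell, and E2F1 and CCND1, which rose. With no intensity trend in limma's variance prior only CCNE2 was called lower (background 2.62%) and 0 genes were called higher (background 5.41%); at an unadjusted p under 0.05 that fit had 9 lower (background 13.1%) and 2 higher (background 17.5%). By contrast, edgeR's quasi-likelihood test on recovered reads called 19 lower (background 14.9%) and 3 higher (background 17.1%). The authors' deposited table called the same 16 genes in the same directions, 14 lower and 2 higher, where its background was 6.01% and 6.89%. Of 33533 genes in the authors' deposited table, 16253 have an adjusted p of exactly 1 and a mean of at most 22.6, and over the other genes its background was 11.7% and 13.4%.

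The replicates of a group also differed along these genes. Vehicle 1 was above vehicle 2 for 37 of the 41 genes (90.2%), with a median log2 gap of 0.08, for 63.2% of all tested genes, with a median gap of 0.04, and for 77.9% of tested genes whose mean reached 1000, with a median gap of 0.06. Octanoate 1 was above octanoate 2 for 31 of the 41 (75.6%), for 56.0% of all tested genes and for 64.3% of those whose mean reached 1000. The genes share their libraries, so they are not independent measurements. Both octanoate libraries lay below both vehicle libraries for 28 of the 41 genes (background 30.5%) and above both for 4 (background 32.6%); among tested genes whose mean reached 1000 these shares were 38.2% and 31.2%.

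**Figure D1:**
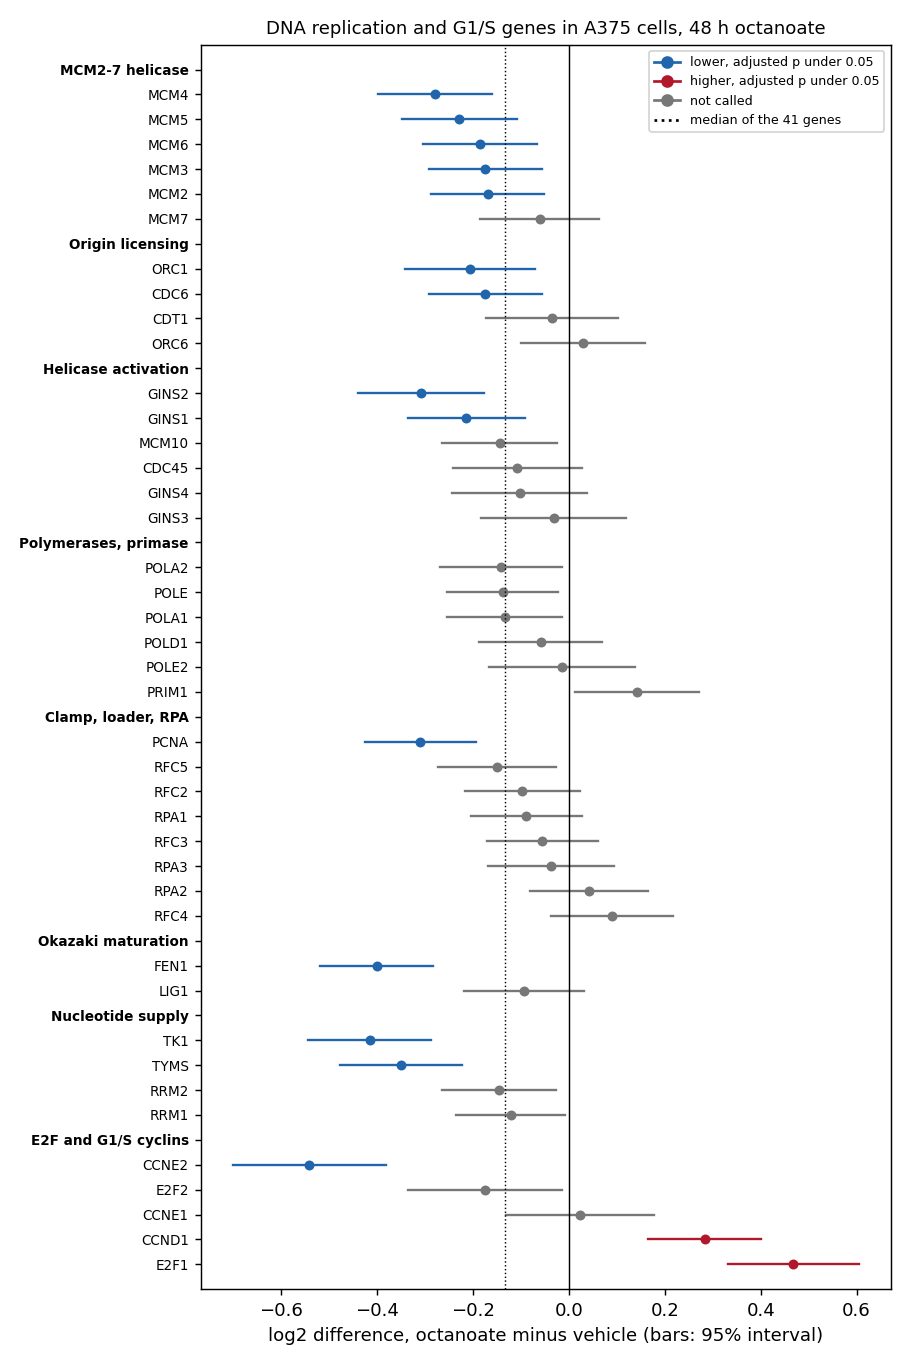
Log2 difference between octanoate and vehicle for each of the 41 genes by role, on the x axis, with the 95% interval from limma as bars (n = 2 per group). Blue points fell, red points rose and grey points were not called; the dotted line is the median of the 41 genes, -0.13, and CCNE2 and E2F1 mark the ends of the range at -0.54 and 0.47.

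**Figure D2:**
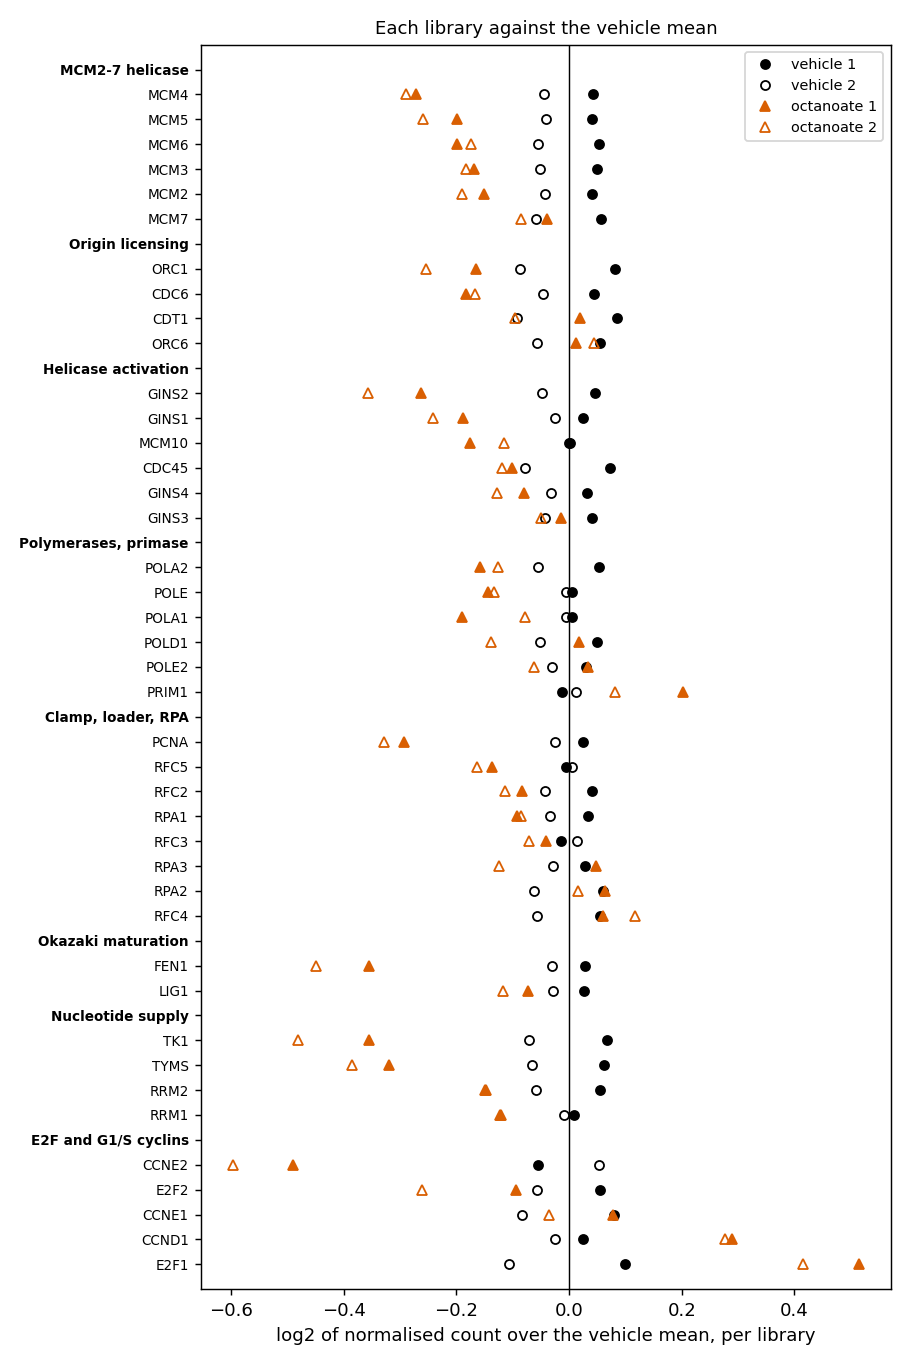
Log2 of the normalised count of each library over the vehicle mean, on the x axis, for the 41 genes by role; circles are vehicle and triangles octanoate, filled for library 1 and open for library 2. Both triangles lie left of both circles for 28 genes, and the filled circle lies right of the open circle for 37.

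The promoters of the 41 genes were searched for the binding motif of the E2F factors, spelled TTTCGCGC or TTTGGCGC on either strand. RefSeq promoters (GRCh38.p14, 250 bases before to 50 bases after the start) matched 34 of the 41 genes by symbol. MCM4, MCM5, GINS4, RPA2, RPA3, CCNE2 and CCND1 had no entry. The motif was present in 12 of the 34 promoters (35.3%), against 322 of 27305 promoters of all genes (1.18%) and 1.86% of the promoters of tested genes. The genes were chosen by role, and most are transcribed by E2F factors, so this share describes the list and not the response to octanoate. It was found in 5 of 11 genes that fell, in E2F1, and in 6 of 22 that were not called. The 5 were GINS1, MCM6, MCM3, CDC6 and MCM2, and none of them kept its call in every fit that left out a library. FEN1, TK1, TYMS, PCNA and GINS2, which did, had no match, and ORC1 had none either. Whether the motif and the fall go together was not tested. CCAAT, the motif of NF-Y, was present on either strand in 19 of the 34 (55.9%), against 35.7% of all promoters. TTTGAA, the letters of the cell cycle homology region, was present on either strand in 1 of the 34 (2.94%), against 15.4% of all promoters and 10.1% of those of tested genes. A match is a description of the letters in this window and not a measured binding site.

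The 100 bases around the matches are shown for the 5 called genes with the smallest p among those that hold the E2F motif, because they let the gene that rose be set beside 4 that fell. Capitals mark the E2F matches, and each sequence runs 5′ to 3′ on the strand of its gene. They are E2F1 (chr20:33686352-33686451, minus strand), GINS1 (chr20:25407623-25407722, plus strand), MCM6 (chr2:135876509-135876608, minus strand), MCM3 (chr6:52284693-52284792, minus strand) and CDC6 (chr17:40287829-40287928, plus strand).
E2F1: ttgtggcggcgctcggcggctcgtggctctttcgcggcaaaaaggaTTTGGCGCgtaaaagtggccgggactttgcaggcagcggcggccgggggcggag
GINS1: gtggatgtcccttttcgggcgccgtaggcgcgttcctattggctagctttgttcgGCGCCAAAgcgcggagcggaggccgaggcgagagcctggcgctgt
MCM6: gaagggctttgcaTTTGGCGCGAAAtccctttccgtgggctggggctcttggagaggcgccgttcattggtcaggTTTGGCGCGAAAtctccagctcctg
MCM3: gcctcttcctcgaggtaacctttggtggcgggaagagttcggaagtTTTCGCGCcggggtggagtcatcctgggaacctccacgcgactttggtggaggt
CDC6: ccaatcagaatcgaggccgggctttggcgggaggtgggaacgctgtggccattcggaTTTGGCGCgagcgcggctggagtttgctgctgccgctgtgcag
The MCM6 window holds 4 matches at a pair of places, since each place reads as TTTGGCGC on one strand and as TTTCGCGC on the other. E2F1 and CDC6 hold the same 8 letters, and E2F1 rose while CDC6 fell.

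Of the MCM helicase genes, whose products form the ring that unwinds the template, 5 of 6 fell. The background was 13.7% of all tested genes, or 1801 of the 9003 whose mean reached 1000. Over the 6 genes the median log2 difference was -0.18. MCM4 had 29990 and 28229 normalised counts in vehicle and 24126 and 23821 in octanoate, a log2 difference of -0.28 with an SE of 0.06 (limma adjusted p 0.000596). MCM5 had 8238 and 7787 in vehicle and 6977 and 6699 in octanoate, a difference of -0.23 with an SE of 0.06 (limma adjusted p 0.00397). For both genes each octanoate library was below each vehicle library (background 30.5%, or 38.2% of tested genes whose mean reached 1000). MCM6 had 12633 and 11713 in vehicle and 10611 and 10786 in octanoate (log2 difference -0.19, limma adjusted p 0.0168). MCM3 had 14909 and 13883 against 12811 and 12684 (log2 difference -0.17, limma adjusted p 0.0230), and MCM2 had 19227 and 18149 against 16827 and 16389 (log2 difference -0.17, limma adjusted p 0.0261). The groups did not overlap for these 3 genes either, but the gap between them was close to that between the vehicle libraries. MCM2, MCM3 and MCM6 lost their calls without vehicle 1, octanoate 1 or octanoate 2, and MCM5 without vehicle 1 or octanoate 2. In these fits the limma adjusted p ranged from 0.0565 to 0.206. MCM7 was not called: its counts of 37849 and 34927 in vehicle overlapped 35425 and 34284 in octanoate, and the 95% interval of its log2 difference ran from -0.18 to 0.06.

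Among the licensing factors, 2 of 4 fell (background 13.7%, or 1801 of the 9003 tested genes whose mean reached 1000). CDC6, the ATPase that brings the helicase to origins, had 9898 and 9290 normalised counts in vehicle and 8455 and 8542 in octanoate, a log2 difference of -0.17 with an SE of 0.06 (limma adjusted p 0.0232). ORC1, a subunit of the origin recognition complex, had 4106 and 3651 in vehicle and 3460 and 3253 in octanoate, a difference of -0.21 with an SE of 0.07 (limma adjusted p 0.0196). CDC6 lost its call without vehicle 1, octanoate 1 or octanoate 2, where its log2 difference was -0.13, -0.17 and -0.18. ORC1 lost its call without vehicle 1 or octanoate 2, where its difference was -0.12 and -0.16. Each fit that left out a library also called a smaller share of all tested genes lower. Without vehicle 1 the differences of CDC6 and ORC1 were also smaller in size than with all libraries. Why their calls were lost was not tested. CDT1, the other loading factor, and ORC6, another origin recognition subunit, were not called. Their groups overlapped, with log2 differences of -0.04 (95% interval -0.17 to 0.10) and 0.03 (95% interval -0.10 to 0.16).

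The helicase activation genes MCM10, CDC45 and GINS1 to GINS4 had log2 differences from -0.31 to -0.03. Of the 6 genes, 2 fell (background 13.7%, or 1801 of the 9003 tested genes whose mean reached 1000). GINS2 had 3823 and 3579 normalised counts in vehicle and 3086 and 2889 in octanoate, a log2 difference of -0.31 with an SE of 0.06 (limma adjusted p 0.000569). GINS1 had 5036 and 4866 in vehicle and 4346 and 4191 in octanoate, a difference of -0.21 with an SE of 0.06 (limma adjusted p 0.00740). Both are subunits of the 4-part GINS ring. The call of GINS1 was lost without vehicle 1 (limma adjusted p 0.0726) and without octanoate 2 (0.0820). The other GINS subunits were not called: GINS4 had a log2 difference of -0.10 and GINS3 one of -0.03, with 95% intervals of -0.24 to 0.04 and -0.18 to 0.12. MCM10, a scaffold of the active helicase, had a difference of -0.14 (limma adjusted p 0.0644, but 0.0384 in edgeR and 0.0494 in DESeq2), and CDC45 one of -0.11 (limma adjusted p 0.230).

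None of the 6 polymerase and primase genes was called in limma; at an unadjusted p under 0.05 there were 3 lower (background 18.6%) and 1 higher (background 21.1%). On recovered reads edgeR called 2 lower (background 14.9%), POLE and POLA2 (edgeR adjusted p 0.0360 and 0.0475). It called 1 higher (background 17.1%), PRIM1 (edgeR adjusted p 0.0477). DESeq2 called 1 lower (background 13.7%), POLE (DESeq2 adjusted p 0.0342), and 0 higher (background 13.8%). POLE, the catalytic subunit of the leading strand polymerase, had 7203 and 7148 normalised counts in vehicle and 6496 and 6541 in octanoate, with no overlap (log2 difference -0.14, limma adjusted p 0.0666). POLA1 and POLA2, which encode polymerase alpha subunits, had log2 differences of -0.13 and -0.14 (limma adjusted p 0.0865 and 0.0884). The gene for the primase subunit PRIM1 lay on the other side, with 3291 and 3348 in vehicle and 3821 and 3513 in octanoate (log2 difference 0.14, limma adjusted p 0.0894). POLD1, the catalytic subunit of the lagging strand polymerase, and POLE2 had overlapping groups, with differences of -0.06 and -0.01.

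The clamp, clamp loader and RPA genes held 1 call among 8, a fall (12.5%). This is near the background, 13.7% of all tested genes lower, or 1801 of the 9003 whose mean reached 1000. PCNA, the sliding clamp that tethers polymerases to DNA, had 23607 and 22788 normalised counts in vehicle and 18942 and 18482 in octanoate, a log2 difference of -0.31 with an SE of 0.06 (limma adjusted p 0.000154). The gap between the groups was several times the gap within either. The loader subunits that place this clamp on DNA were not called in limma: RFC5 had a log2 difference of -0.15 (limma adjusted p 0.0607, but 0.0300 in edgeR and 0.0497 in DESeq2), RFC2 one of -0.10, RFC3 one of -0.06 and RFC4 one of 0.09. The subunits of RPA, which coats single-stranded DNA, were not called either, with differences of -0.09 for RPA1, 0.04 for RPA2 and -0.04 for RPA3. For these 3 genes the 95% intervals lay between -0.20 and 0.16.

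Of the pair of genes that finish Okazaki fragments, FEN1 fell (background 13.7% lower). FEN1, the nuclease that removes flaps, had 14903 and 14315 normalised counts in vehicle and 11426 and 10702 in octanoate, a log2 difference of -0.40 with an SE of 0.06 (limma adjusted p 7.71e-06). LIG1, the ligase that seals the nick, had 3634 and 3497 in vehicle and 3389 and 3287 in octanoate and was not called (log2 difference -0.09, limma adjusted p 0.258).

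All 4 genes of nucleotide supply had both octanoate libraries below both vehicle libraries (background 30.5%, or 38.2% of tested genes whose mean reached 1000). Of the 4 genes, 2 fell (background 13.7%, or 1801 of the 9003 tested genes whose mean reached 1000). TK1, the cytosolic thymidine kinase, had 10318 and 9368 normalised counts in vehicle and 7700 and 7054 in octanoate, a log2 difference of -0.42 with an SE of 0.06 (limma adjusted p 1.38e-05). TYMS, the thymidylate synthase, had 5569 and 5098 in vehicle and 4276 and 4082 in octanoate, a difference of -0.35 with an SE of 0.06 (limma adjusted p 0.000104). TK1 and TYMS both act in the making of thymidine nucleotides. The ribonucleotide reductase subunits had smaller differences and were not called in limma: RRM2 had 13535 and 12511 in vehicle and 11751 and 11756 in octanoate (log2 difference -0.15, limma adjusted p 0.0575), and RRM1 had 13811 and 13633 against 12627 and 12603 (log2 difference -0.12, limma adjusted p 0.103). Both were called lower by DESeq2 (adjusted p 0.0184 for RRM2 and 0.0403 for RRM1), and RRM2 also by edgeR (adjusted p 0.0293) and in limma without vehicle 2 (adjusted p 0.0326).

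The E2F and cyclin genes moved in both directions, with 2 higher (background 16.2%) and 1 lower (background 13.7%) among 5. E2F1, an activating E2F factor that is itself an E2F target, had 4682 and 4060 normalised counts in vehicle and 6246 and 5826 in octanoate, a log2 difference of 0.47 with an SE of 0.07 (limma adjusted p 6.86e-06). CCND1, which encodes cyclin D1, the partner of CDK4 and CDK6, had 29471 and 28468 in vehicle and 35379 and 35116 in octanoate, a difference of 0.28 with an SE of 0.06 (limma adjusted p 0.000480). Both octanoate libraries were above both vehicle libraries for each gene. CCNE2, which encodes a cyclin E, a partner of CDK2, had 1261 and 1358 in vehicle and 933 and 866 in octanoate, a difference of -0.54 with an SE of 0.08 (limma adjusted p 7.21e-06). The other cyclin E gene, CCNE1, had overlapping groups, 1543 and 1378 in vehicle and 1541 and 1424 in octanoate, with a 95% interval of -0.13 to 0.18. E2F2, another activating E2F, had a log2 difference of -0.18 that was not called (limma adjusted p 0.0928). Without octanoate 1 its difference was -0.26. Some other fits called E2F2 lower, as with the replicate number as a block (limma adjusted p 0.0126, background 20.1%). After removal of the trends with GC content and length its limma adjusted p was 0.0275 (background 23.8%). In edgeR it was not called (adjusted p 0.0842).

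**Figure D3:**
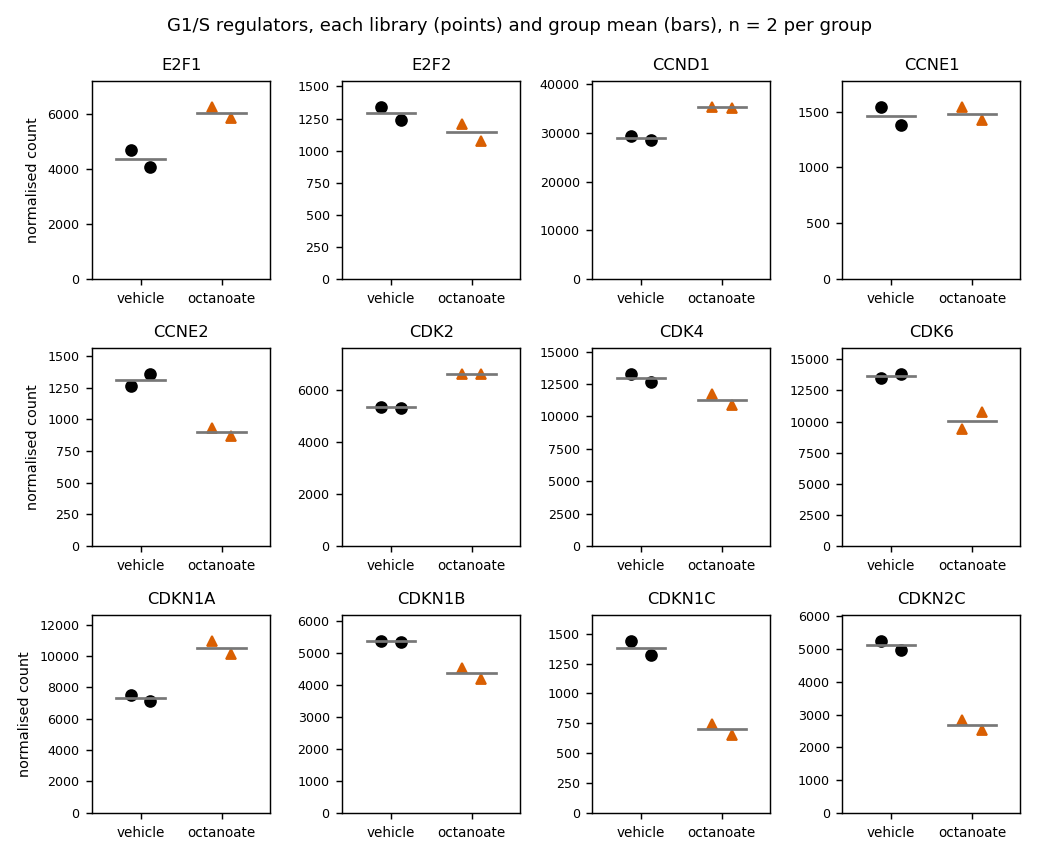
Normalised counts (y axis, from 0) of 12 G1/S regulators in each library, with circles for vehicle, triangles for octanoate and bars for the group means (n = 2 per group). E2F1, CCND1, CDK2 and CDKN1A lie higher in octanoate, the groups of CCNE1 overlap, and CDKN1C and CDKN2C lie lower, with changes of -49.5% and -47.6%.

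Other genes of the pathway, from lists made by role, were read from the same fit. Of 69 tested, 23 were lower and 6 higher (background 13.7% and 16.2%). These were 9 and 1 of 34 other replication genes (26.5% and 2.94%) and 3 and 1 of 8 other nucleotide genes (37.5% and 12.5%). Of 27 other G1/S regulators they were 11 and 4 (40.7% and 14.8%). In each of these lists the share called higher was below the background. The median log2 difference of the 69 was -0.07. With a library left out fewer were lower, as in the background. Without an intensity trend 2 were lower (background 2.62%) and 1 higher (background 5.41%). The CDK inhibitor gene CDKN2B had 0 reads in all 4 libraries and was not tested.

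The genes named here are those with the largest called changes and a set of cyclin-dependent kinases, their inhibitors and RB1. CDKN1A, which encodes a CDK inhibitor and is a known p53 target, rose from 7513 and 7147 normalised counts in vehicle to 10975 and 10109 in octanoate (log2 difference 0.52, limma adjusted p 2.34e-07). Other CDK inhibitor genes fell: CDKN1C had 1442 and 1325 against 741 and 656 (log2 difference -0.99, limma adjusted p 1.52e-09), and CDKN2C, an inhibitor of CDK4 and CDK6, had 5256 and 4970 against 2822 and 2545 (log2 difference -0.93, limma adjusted p 5.67e-11). CDKN1B had 5374 and 5326 against 4513 and 4189 (log2 difference -0.30, limma adjusted p 0.000450). The kinase genes moved apart. CDK2 rose from 5331 and 5321 to 6621 and 6623 (log2 difference 0.31, limma adjusted p 0.000145), while CDK6 fell from 13522 and 13837 to 9400 and 10745 (log2 difference -0.44, limma adjusted p 5.55e-06) and CDK4 from 13288 and 12649 to 11713 and 10892 (log2 difference -0.20, limma adjusted p 0.0114). RB1, the retinoblastoma gene, had a log2 difference of -0.21 (limma adjusted p 0.00679). CDK4 lost its call without vehicle 1 (limma adjusted p 0.106) and without octanoate 2 (0.193), and RB1 without vehicle 2 (0.0555) and without octanoate 1 (0.0646).

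ASF1B, a histone chaperone of replicating chromatin, and FBXO5, an inhibitor of the anaphase-promoting complex, had log2 differences of -0.39 and -0.32 (limma adjusted p 2.27e-05 and 0.000271). E2F7, a repressor E2F, and CKS1B, a CDK subunit, rose by 0.32 and 0.28 (limma adjusted p 0.000442 and 0.000475). POLD4, a small polymerase delta subunit, rose by 0.39 (limma adjusted p 0.00432), but its difference was 0.21 without vehicle 2, with a limma adjusted p of 0.169.

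Set beside a list of 33 G2/M genes, which act in mitosis, the 41 genes had fewer calls: 23 of the 33 were lower and 1 higher, with a median log2 difference of -0.20. The background was the same 13.7% and 16.2%. Without an intensity trend 0 of the G2/M genes were lower and 0 higher (background 2.62% and 5.41%). With no filter 10 were lower (background 2.30%). With a library left out fewer were lower, as in the background, and none was higher. The difference between the lists was not tested. Vehicle 1 was above vehicle 2 for 22 of the 33 G2/M genes, compared with 37 of the 41.

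**Figure D4:**
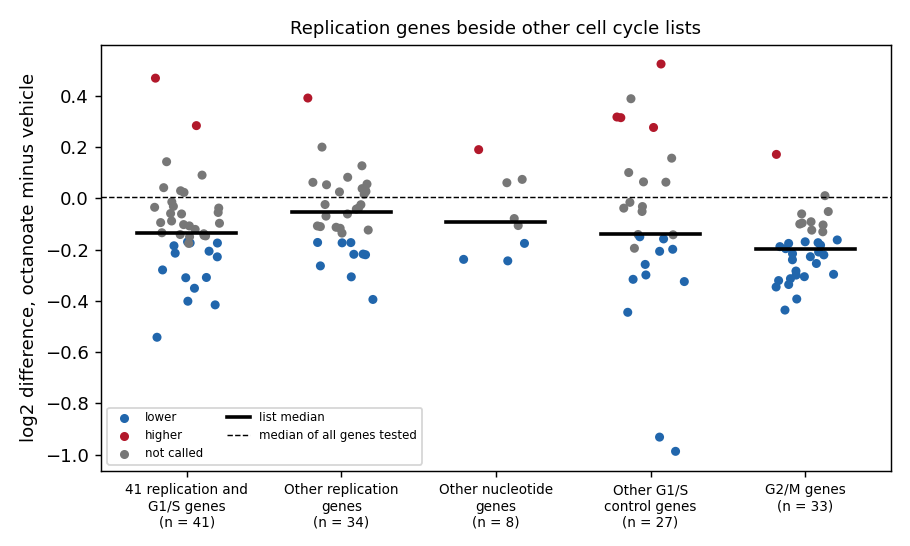
Log2 difference between octanoate and vehicle (y axis) for each tested gene of 5 lists (x axis), coloured by call; thick bars are list medians and the dashed line is the median of all tested genes, 0.01. The medians are -0.13 for the 41 genes, -0.05, -0.09 and -0.14 for the other replication, nucleotide and G1/S lists, and -0.20 for the G2/M genes.

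Levels between genes can be compared only per length of transcript. Per kilobase of exon annotated in GENCODE 29, vehicle means were highest for PCNA, 15769.9 normalised counts, followed by MCM7 with 8296 and CCND1 with 5998, and lowest for E2F2, GINS3 and CCNE2, with 237, 243 and 298. Annotated exons include rare transcripts, so these levels are approximate.

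Some counts are uncertain because reads can be shared between genes, and the sources used here do not state whether counting used the strand. By the GENCODE 29 annotation, 16 of the 41 genes have exons that overlap those of a gene on the other strand, and 6 of the 16 called genes are among them: MCM2, GINS2, FEN1, TYMS, CCNE2 and CCND1. For CCNE2 the overlap covers 1633 of 4397 exonic bases, mostly with INTS8, whose own counts were 5635 and 5630 in vehicle and 5759 and 5948 in octanoate (log2 difference 0.06, limma adjusted p 0.513). For TYMS it covers 1150 of 2470 bases. Its neighbour ENOSF1 had a log2 difference of 0.15 (limma adjusted p 0.0870). FEN1 shares 1150 bases at over 95% identity with FEN1P1, a pseudogene, and 19 of the 41 genes share at least 100 bases at this identity with another gene.

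Libraries held from 67785956 to 78005035 recovered reads, and the 41 genes had vehicle means from 1223 to 36388 normalised counts, each resting on at least 799 recovered reads in every library. The median standard error of their log2 differences was 0.06. Of 9 melanocyte lineage markers 4 had a mean of at least 100: SOX10 had 34072 to 41363 normalised counts, MITF 2414 to 3533, S100B 1746 to 4234 and S100A1 127 to 167, while the pigment genes PMEL, MLANA, TYRP1, DCT and TYR were at 98.2 or less in every library. MITF and S100B fell after octanoate, with log2 differences of -0.48 and -1.12 (limma adjusted p 2.33e-06 and 9.15e-12), PMEL rose by 0.55 (limma adjusted p 0.0289), and SOX10, which makes up most of the list's sum, had a difference of -0.12 and was not called. The 9 markers summed to 45156 and 49411 in vehicle and to 38697 and 43768 in octanoate. The 8 markers of other cell types summed to 176 and 186 in vehicle and to 269 and 294 in octanoate. Of this sum the endothelial marker PECAM1 held 121 and 122 in vehicle and 249 and 221 in octanoate, and the leukocyte marker PTPRC was at 10.8 or less and CD3E at 2.91 or less. The part of these marker differences in the results was not tested.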

How the data were processed

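The deposited values are a signal per gene and library, named by the authors as DESeq2 normalised counts; per the submitters' processing notes, bcl2fastq 2.17, Trim Galore, STAR 2.4, Picard, HTSeq 0.9.1, DESeq2 and the hg38 build were used. The annotation is not given in the sources used here. Divided by the library's smallest positive value, 100% of positive values in each library were whole numbers (tolerance 0.001), which gave recovered reads. The authors' deposited table gives a log2 fold change, its standard error and a test statistic (score), and p-values for 33533 genes.

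Here limma 3.58.1 (R 4.3.3) was fitted to log2(normalised count + 1) of the 20250 genes with a mean of at least 10, with an intensity trend and treatment as the only term, two-sided, with Benjamini-Hochberg adjustment over all of them. edgeR 4.0.16 and DESeq2 1.42.0 on recovered reads were alternatives. An exact permutation of 2 against 2 libraries cannot give a two-sided p below 0.333. On simulated counts for these 20250 genes limma's share of changed genes recovered was 30.5% at a log2 change of 0.25, 65.3% at 0.5, 74.4% at 1 and 98.0% at 2, with 3 false calls among 133. The simulation changed few genes, drew each gene independently and counted recovery over genes of all levels. In the data many genes changed and replicates differed in the same direction for many genes. The simulated shares need not hold for the 41 genes. Overlaps and shared sequence came from GENCODE 29 (blastn 2.17.0, at least 100 bases at 95% identity). The members and lists were chosen with earlier results of these data known. The genes named were all 41 members, the 5 largest called rises and 5 largest called falls of the other pathway lists with a mean of at least 100, and CDKN1A, CDKN1B, CDKN2C, RB1, CDK2, CDK4 and CDK6.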

Additional observations from a re-analysis of the deposited data

How the results depend on the processing

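The number of genes called lower, 14 of 41, was 7 with no filter on low values (2.30% of all genes tested lower), 1 without an intensity trend (2.62%), 15 over the 15183 GENCODE genes (17.0%), 23 over the same genes after removal of the trends with GC content and length (23.8%), and between 7 and 15 with each library left out in turn (7.53% to 11.2%). The number called higher, 2, was 0 without an intensity trend and 2 in each fit that left out a library. The median log2 difference, -0.13, ranged from -0.14 to -0.09 with a library left out. Among the other pathway genes, 23 lower and 6 higher became 9 and 3 with no filter and 2 and 1 without an intensity trend; with a library left out they ranged from 13 to 18 and from 4 to 6. With a library left out, 8 of the 41 genes changed sign, and none of these was called in any such fit: the GINS3 log2 difference ranged from -0.073 to 0.010, and the others from -0.027 to 0.085 for ORC6, from -0.124 to 0.054 for CDT1, from -0.137 to 0.018 for POLD1, from -0.062 to 0.034 for POLE2, from -0.020 to 0.103 for RPA2, from -0.124 to 0.048 for RPA3 and from -0.059 to 0.105 for CCNE1. The GC content check is void over all genes, since 15183 of 20250 (75.0%) have a value, although all 41 genes do. Where a value above moved, the cause was not tested. With other pseudocounts, TMM factors, equal column totals, edgeR or DESeq2 no gene of the 41 changed sign.

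What a replicate number stands for is not in the labels, and 2 pairs cannot show it. Deviations of same-numbered libraries had a correlation of 0.13 across 20250 genes. With the number as a replicate block, 22 of the 41 genes were lower and 3 higher, where 20.1% and 21.3% of all tested genes were.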
